A study of Mus musculus with 12 samples.

Results

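The genes that lead from tryptophan to nicotinamide adenine dinucleotide (NAD) were examined in whole kidneys of mice with chronic kidney disease (CKD) and of CKD mice given iron dextran therapy. They were the 10 rows of the deposited expression table, of 22053 in all, whose gene name was Ido1, Afmid, Kmo, Kynu, Haao, Acmsd, Qprt, Nmnat1, Nadsyn1 or Nampt. The rows were taken by gene name and not by a measured value, but earlier results of these data were known when the genes were chosen. The study asked whether iron therapy alters the course of CKD, and kidney RNA was sequenced from 12 C57BL/6 mice, 4 in each of 3 groups, with 1 library a mouse. CKD mice ate a diet with 0.2% adenine from 8 to 16 weeks of age and received weekly intraperitoneal PBS. CKD+Fe mice ate the same diet and received weekly intraperitoneal iron dextran at 0.5 g/kg, and control mice ate the diet without adenine and received PBS. Both treatments were systemic and not directed at a single cell type. Mice are named by the numbers in their labels. Expression is given in FPKM, a fragment count divided by transcript length and by library depth, so levels can be set beside each other between genes.

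The kidney and the liver are known as the main sites where NAD is made from tryptophan, and in the kidney the pathway is known mostly from the proximal tubule. Indoleamine dioxygenases (Ido1 and Ido2) or tryptophan dioxygenase open the tryptophan ring, and the formamidase Afmid then yields kynurenine. The monooxygenase Kmo hydroxylates kynurenine, the kynureninase Kynu cuts its side chain, and the dioxygenase Haao opens the ring of the product. The unstable product of Haao stands at a branch point, because the decarboxylase Acmsd takes it away from NAD, while what escapes Acmsd closes spontaneously to quinolinate and is used by Qprt. Qprt makes nicotinic acid mononucleotide, the adenylyltransferase Nmnat1 extends it and the synthetase Nadsyn1 completes NAD. Nampt starts the separate salvage route, which rebuilds NAD from nicotinamide and shares Nmnat1 with the route from tryptophan.

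All 10 genes are protein-coding, and the table gives positions on the mouse build GRCm38. Ido1 lies on chromosome 8 from 24584136 to 24597009, Afmid on chromosome 11 from 117825924 to 117839908, and Kmo on chromosome 1 from 175620381 to 175662116. Kynu lies on chromosome 2 from 43555329 to 43682715 and Haao on chromosome 17 from 83831356 to 83846790. Qprt and Nadsyn1 are both on chromosome 7, from 127107114 to 127122226 and from 143795584 to 143822849. Nmnat1 lies on chromosome 4 from 149467572 to 149485202 and Nampt on chromosome 12 from 32820335 to 32853369. Each value covers the exons of a whole gene. Afmid is the least certain of the 10, because 44.2% of its exon bases in the GENCODE M21 annotation are shared with Gm20708 on the same strand, which the table lists separately at 5.31 FPKM in control and 1.10 FPKM in CKD mice.

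Promoters were looked at, as a description, because 6 of the genes were lower in CKD mice. The promoters of 7 of the 10 genes are described, from the RefSeq promoter table of GRCm38.p6, which holds the 250 bases before and 50 bases after a start listed for a gene. For Kmo that window, chr1:175631943-175632242, lies inside the gene as placed above, which begins at 175620381. What is said of the Kmo promoter therefore covers this internal start and not the bases before the first one. Kynu and Ido1 had no entry in it. The gene whose RNA was most reduced in CKD, Haao, and the one with the smallest change as deposited, Nampt, are shown 5′ to 3′ on the strand of the gene, at chr17:83846741-83847040 (minus strand) and chr12:32820085-32820384 (plus strand). Capitals mark the letters GCGTG, the core that the aryl hydrocarbon receptor binds, or AGGTCANAG, each on either strand. AGGTCANAG is only the first part of a direct repeat bound by nuclear receptors such as PPAR and HNF4. The rest of that repeat was not searched for, so a match is not a whole repeat. CACGC and CTTTGACCT are the same motifs on the opposite strand.
Haao: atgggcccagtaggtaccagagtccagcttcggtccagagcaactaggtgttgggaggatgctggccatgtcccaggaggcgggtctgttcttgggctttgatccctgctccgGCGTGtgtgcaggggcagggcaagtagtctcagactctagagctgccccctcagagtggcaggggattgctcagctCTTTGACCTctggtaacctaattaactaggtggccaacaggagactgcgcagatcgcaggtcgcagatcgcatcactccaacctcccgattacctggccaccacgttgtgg
Nampt: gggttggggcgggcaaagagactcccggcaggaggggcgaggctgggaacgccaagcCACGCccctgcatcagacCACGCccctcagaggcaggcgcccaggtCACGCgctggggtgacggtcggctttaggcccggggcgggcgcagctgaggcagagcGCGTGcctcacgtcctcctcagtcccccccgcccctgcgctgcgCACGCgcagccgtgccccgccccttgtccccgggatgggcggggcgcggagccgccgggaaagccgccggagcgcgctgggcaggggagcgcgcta
The Nampt promoter was rich in G and C (76.3%) with 36 CpG dinucleotides, and those of Nmnat1 and Nadsyn1 were like it, with 28 and 27. The promoters of Kmo, Qprt and Haao had 7, 7 and 10 CpG dinucleotides, against a median of 7 over all 27025 promoters of the table. Afmid lay between, with 18. The motif GCGTG was in 2 of the 7 promoters, that of Haao and (5 times) that of Nampt, and in 32.5% of all promoters. AGGTCANAG was in that of Haao alone among the 7, 61 bases before the start, and in 2.02% of all promoters. The motifs GTTAATNAT of HNF1, CAAAGTCCA of HNF4 and GAAANNGAA of interferon response elements, searched on both strands, were in 0 of the 7 and in 0.836%, 0.477% and 8.57% of all promoters. The motifs do not overlap in the sequences shown. These are matches of letters and carry no measurement of binding.

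Of the 10 genes, 9 passed the filter on low values (at least 1 FPKM in at least 4 mice), and in CKD mice 6 of the 9 fell against control mice, 1 was higher and 2 passed in neither direction. The 6 that fell were Haao, Acmsd, Kmo, Afmid, Qprt and Nmnat1, with log2 fold changes of FPKM + 1 from -2.66 to -0.71. The summed expression of all 10 genes was 488 ± 13.7 FPKM (SD, n = 4) in control mice and 167 ± 22.3 FPKM in CKD mice. Genes of high level weigh most in that sum. By the means Haao went from 191 to 31.6 FPKM, and Acmsd, which leads away from NAD, from 84.8 to 17.2 FPKM. Calls were made with limma at an adjusted p (Benjamini-Hochberg over 13148 genes) under 0.05, by which 13.3% of all genes tested were lower and 54.6% higher in CKD mice. The same 6 genes were lower in every CKD mouse than in every control mouse, as were 10.4% of all genes, and the 1 higher gene, Kynu, was higher in every CKD mouse, as were 44.6%. The median log2 fold change of the 9 genes was -0.79, beside 0.50 over all genes.

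That shift of all genes bears on every value here, and its cause was not tested. Median-of-ratios rescaling or quantile normalization brought the median of all genes to -0.03 or -0.01. The 6 genes that fell were called lower under both, and the calls that turned on the scale were those of Kynu and Nadsyn1. Nampt was called on no scale, and of these rescalings only median-of-ratios turned its sign.

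**Figure D1:**
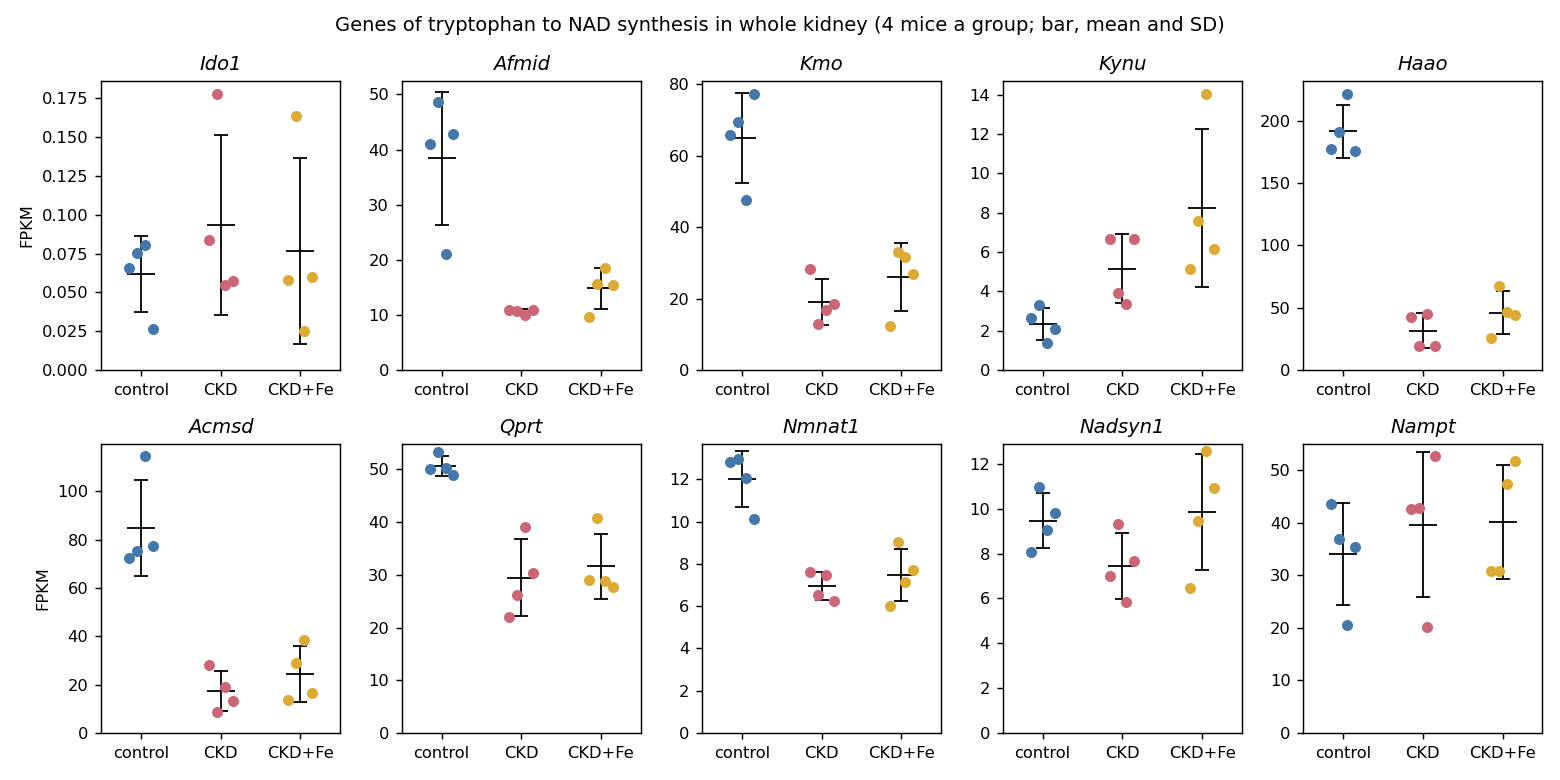
FPKM (vertical axis, from 0, with its own scale in each panel) of the 10 genes in 4 control, 4 CKD and 4 CKD+Fe mice. Points are mice, and bars are the mean and SD. Haao falls from a control mean of 191 to 31.6 in CKD, while Kynu goes from 2.35 to 5.16 and Nampt groups overlap.

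The first step was barely represented by Ido1. Its expression was between 0.0252 and 0.178 FPKM in all 12 mice, under the filter, so it was not part of the fit. The kidney level of Ido1 in CKD mice was 0.0934 ± 0.0579 FPKM (SD, n = 4) and in control mice 0.0619 ± 0.0246 FPKM, with overlapping groups (exact two-sided permutation p = 0.486). With no filter on low values its log2 fold change was 0.04 (limma, adjusted p = 0.462). Whether so low a level comes from few cells of a type or from little RNA in many cells cannot be told apart in whole tissue, nor can fewer cells of a type and less RNA per cell for any gene below.

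Afmid, which makes kynurenine, was at 41.0, 48.6, 21.1 and 42.9 FPKM in control mice 012811, 012822, 042301 and 042310. In CKD mice 021320, 022301, 110310 and 120102 it was at 10.8, 10.7, 10.03 and 11.0 FPKM. The CKD mice were nearly equal, and the lowest control mouse was still above all of them. The log2 fold change was -1.70 (SE 0.23, 95% confidence interval -2.20 to -1.19, adjusted p = 3.51e-05). Gm20708, which shares exons with it, was lower in CKD by its mean as well, and its part in the value of Afmid was not tested.

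Kmo was at 65.7, 69.3, 47.5 and 77.3 FPKM in the control mice and 28.2, 12.9, 17.0 and 18.5 FPKM in the CKD mice, in the same order of mice. Control mouse 042301 was again the lowest of its group and the groups did not overlap. The mean was 3.39-fold lower in CKD (log2 fold change -1.74, SE 0.29, 95% confidence interval -2.36 to -1.12, adjusted p = 0.000144).

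Kynu, the next enzyme, went the other way. It was at 2.63, 3.30, 1.36 and 2.097 FPKM in the control mice and 6.69, 3.91, 3.39 and 6.65 FPKM in the CKD mice. The lowest CKD mouse, 110310, was close to the highest control mouse, 012822, and above it. The log2 fold change was 0.87 (SE 0.28, 95% confidence interval 0.26 to 1.48, adjusted p = 0.0153), but it was 0.40 (adjusted p = 0.253) after median-of-ratios rescaling and 0.05 (adjusted p = 0.899) after quantile normalization. The higher level of Kynu therefore holds on the FPKM scale and is not called once the shift of all genes is removed.

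Haao had the highest level of the 10 genes in control mice and the largest fall among them in CKD. It was at 177, 191, 221 and 176 FPKM in the control mice and 42.4, 19.5, 45.0 and 19.5 FPKM in the CKD mice. CKD mice came as a pair near 19.5 FPKM and a pair above 42 FPKM, all far under the control mice. The mean was 6.05-fold lower (log2 fold change -2.66, SE 0.30, 95% confidence interval -3.31 to -2.01, adjusted p = 7.29e-06).

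Acmsd, the enzyme that draws the product of Haao away from NAD, fell nearly as far. It was at 72.2, 75.2, 114 and 77.3 FPKM in the control mice and 27.9, 8.79, 18.9 and 13.2 FPKM in the CKD mice. Mouse 042301, low for Afmid and Kmo, was the highest control mouse for Acmsd. The mean was 4.92-fold lower in CKD (log2 fold change -2.32, SE 0.34, 95% confidence interval -3.06 to -1.59, adjusted p = 5.70e-05).

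Qprt, on the NAD side of the branch, fell by less. It was at 50.2, 53.3, 50.2 and 48.9 FPKM in the control mice, a narrow range, and 22.0, 26.2, 39.1 and 30.4 FPKM in the CKD mice. The mean was 1.72-fold lower (log2 fold change -0.79, SE 0.17, 95% confidence interval -1.16 to -0.43, adjusted p = 0.00100). The intervals of Qprt and Acmsd on the log2 scale do not meet.

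Nmnat1, which serves both routes, was at 12.8, 13.0, 12.1 and 10.1 FPKM in the control mice and 7.59, 6.52, 7.46 and 6.27 FPKM in the CKD mice. The groups did not overlap (log2 fold change -0.71, SE 0.14, 95% confidence interval -1.01 to -0.41, adjusted p = 0.000577). Nadsyn1, the last step, was at 8.06, 11.0, 9.06 and 9.83 FPKM in the control mice and 7.01, 9.34, 5.82 and 7.66 FPKM in the CKD mice, and the groups overlapped. Its log2 fold change was -0.32 (SE 0.19, 95% confidence interval -0.72 to 0.09, adjusted p = 0.147), and it was called lower after median-of-ratios rescaling (-0.88, adjusted p = 0.00114) and after quantile normalization (-0.94, adjusted p = 0.00105). On both rescaled scales 7 of the 9 genes were lower and 0 higher. Of all 13148 genes, 4075 were lower and 3571 higher with median-of-ratios rescaling, and 3316 lower and 3205 higher with quantile normalization, so lower calls were also more frequent over all genes there than as deposited.

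Nampt, the entry to salvage, was at 43.5, 36.8, 20.6 and 35.3 FPKM in the control mice and 42.6, 42.8, 20.2 and 52.7 FPKM in the CKD mice. One mouse of each group, 042301 and 110310, was near 20 FPKM and the others were at 35 FPKM or above. The log2 fold change was 0.18 (SE 0.29, 95% confidence interval -0.45 to 0.81, adjusted p = 0.595), it was -0.42 after median-of-ratios rescaling, and it was -0.04 without control mouse 042301. Neither a rise nor a fall of Nampt was detectable in these 8 mice.

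The order of the mean levels changed with CKD. In control mice it ran Haao, Acmsd, Kmo, Qprt, Afmid, Nampt, Nmnat1, Nadsyn1, Kynu and Ido1, and the ranges of Acmsd and Kmo, Kmo and Qprt, Afmid and Nampt, and Nmnat1 and Nadsyn1 overlapped. In CKD mice Nampt came first, before Haao, Qprt, Kmo, Acmsd, Afmid, Nadsyn1, Nmnat1, Kynu and Ido1. There each neighbour from Nampt down to Afmid overlapped with the next, as did those from Nadsyn1 down to Kynu. In CKD+Fe mice Haao had the highest mean, then Nampt, Qprt, Kmo, Acmsd, Afmid, Nadsyn1, Kynu, Nmnat1 and Ido1. There all neighbours but the last pair overlapped. Haao was above Nampt in only 1 of the 4 CKD+Fe mice, and Kynu above Nmnat1 in only 1, so these places rest on single mice. In CKD mice Nampt was above Haao in 3 of 4.

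Iron dextran therapy gave no call among the 9 genes. CKD+Fe and CKD mice overlapped for every one of them, with adjusted p values from 0.874 to 0.996 by limma, and 0 of the 9 had an unadjusted p under 0.05. All 9 log2 fold changes were above 0, from 0.06 for Nampt to 0.56 for Haao, with a median of 0.39 beside -0.0005 over all genes. Across all genes tested, 0% were called lower and 0.00761% (1 gene) higher, 1.08% were lower in every CKD+Fe mouse and 1.35% higher in every one, and 790 genes had an unadjusted p under 0.05. The 9 genes share the same 8 mice, so their common direction is not a set of independent results.

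In CKD+Fe mice 042702, 062910, 111710 and 122320, Haao was at 25.8, 67.5, 46.9 and 44.2 FPKM. Mice 062910 and 111710 exceeded every CKD mouse, and mice 042702 and 122320 lay within the CKD range. The log2 fold change against CKD was 0.56 (SE 0.30, 95% confidence interval -0.09 to 1.21, adjusted p = 0.882). Afmid was at 9.68, 15.7, 18.5 and 15.5 FPKM, so that 3 of the 4 mice were above all CKD mice and mouse 042702 was below all of them. Its log2 fold change was 0.41 (SE 0.23, 95% confidence interval -0.09 to 0.92, adjusted p = 0.905).

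Mouse 042702 was the lowest of the CKD+Fe mice for most of the pathway. Kmo was at 12.5 FPKM in it and at 33.1, 31.6 and 26.9 FPKM in the others. Acmsd was at 13.7 FPKM in it and at 28.7, 38.5 and 16.5 FPKM in the others. Nmnat1 was at 6.03 FPKM in it and at 9.03, 7.17 and 7.71 FPKM in the others, and Nadsyn1 was at 6.48 FPKM in it and at 9.47, 12.6 and 10.9 FPKM in the others.

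Kynu was at 5.15, 7.58, 14.1 and 6.16 FPKM in the CKD+Fe mice, with mouse 111710 the highest of all 12. The log2 fold change against CKD was 0.54 (SE 0.28, 95% confidence interval -0.07 to 1.15, adjusted p = 0.874), and it was 0.28 without mouse 111710. Qprt was at 29.1, 40.8, 28.7 and 27.7 FPKM, and its log2 fold change of 0.11 was -0.01 without mouse 062910. Nampt was at 30.8, 30.9, 47.3 and 51.6 FPKM, a pair of low and a pair of high mice.

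Mouse 042702 also had the lowest summed proximal tubule markers of its group, 2274 FPKM against 4298 to 5688 FPKM in the other CKD+Fe mice, and the highest summed macrophage markers, 3846 FPKM against 1728 to 2804 FPKM. Without it and mice 042301 and 110310, which stood apart in earlier results of these data, the log2 fold change with iron was 1.01 for Haao (adjusted p = 0.0885) and 0.57 for Afmid (adjusted p = 0.0509), and again no gene of the pathway passed the threshold. In that fit 33 of all genes were lower and 51 higher with iron. Mouse 042702 had the lowest Haao and Afmid of the CKD+Fe mice, and mouse 110310 had the highest Haao of the CKD mice. The larger values of Haao and Afmid therefore follow in part from the choice of mice left out.

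**Figure D2:**
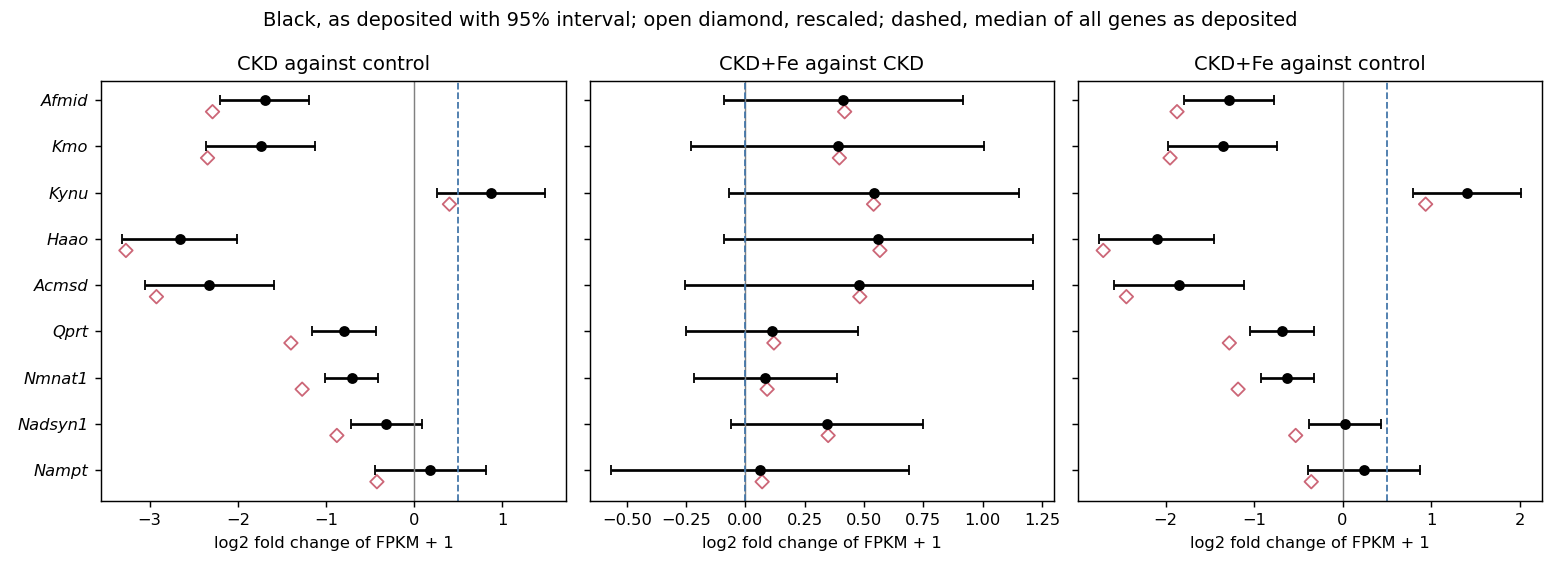
Log2 fold change of FPKM + 1 (horizontal axis) of the 9 tested genes in 3 comparisons. Black points with bars are the values as deposited with 95% confidence intervals, open diamonds are the values after median-of-ratios rescaling, and the dashed line is the median of all genes as deposited. In CKD against control 6 intervals lie below 0 and that of Kynu above it, and all 9 intervals of CKD+Fe against CKD include 0.

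Against control mice, CKD+Fe mice showed the same calls as CKD mice, with which they share the controls: 6 of 9 genes lower and 1, Kynu, higher. Of all genes, 11.0% were called lower and 54.4% higher, and 9.82% were lower and 50.3% higher in every CKD+Fe mouse. The mean of Haao was 4.15-fold lower (limma adjusted p = 6.32e-05), and the log2 fold changes were -1.85 for Acmsd (adjusted p = 0.000404), -1.35 for Kmo (adjusted p = 0.00109) and -1.28 for Afmid. The values of Qprt and Nmnat1 were -0.68 (adjusted p = 0.00308) and -0.62 (adjusted p = 0.00160). Kynu had 1.41 (SE 0.28, adjusted p = 0.000768), and it was 0.94 (adjusted p = 0.0144) after median-of-ratios rescaling and 0.63 (adjusted p = 0.103) after quantile normalization. Nadsyn1 had 0.03 (adjusted p = 0.913) and turned to -0.53 (adjusted p = 0.0261) after median-of-ratios rescaling and to -0.57 (adjusted p = 0.0260) after quantile normalization. Nampt had 0.24 (adjusted p = 0.481), and was at -0.35 (adjusted p = 0.317) and 0.04 (adjusted p = 0.924) on those scales. The summed expression of the 10 genes was 209 ± 49.5 FPKM (SD, n = 4) in CKD+Fe mice.

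Ratios within a mouse do not depend on the scale of a library. The 3 ratios below were chosen after the values had been seen, and 9 exact permutation tests were made, of which the smallest possible p is 0.0286. Qprt to Acmsd, the 2 enzymes at the branch point, stood at 0.694, 0.709, 0.439 and 0.633 in control mice and at 0.788, 2.99, 2.07 and 2.29 in CKD mice. Acmsd RNA thus exceeded Qprt RNA in every control mouse and in 1 of 4 CKD mice, 021320. The geometric mean ratio was 3.00-fold higher in CKD (exact two-sided permutation p = 0.0286, adjusted over the 9 tests 0.0643), and in CKD+Fe mice the ratio was 1.49 ± 0.577 (SD, n = 4), overlapping with CKD.

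Kynu to Kmo was 0.0359 ± 0.00973 (SD, n = 4) in control mice, 0.274 ± 0.0702 in CKD mice and 0.329 ± 0.116 in CKD+Fe mice. The highest control ratio was 0.0476 and every CKD mouse was above it, with a 7.67-fold difference of the geometric means (exact two-sided permutation p = 0.0286, adjusted 0.0643). Kynu RNA remained below Kmo RNA in all 12 mice. Nampt to Qprt, salvage against synthesis from tryptophan, was 0.672 ± 0.191 in control and 1.45 ± 0.639 in CKD mice, and the groups overlapped through CKD mouse 110310 at 0.516 (exact two-sided permutation p = 0.114, adjusted 0.171).

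**Figure D3:**
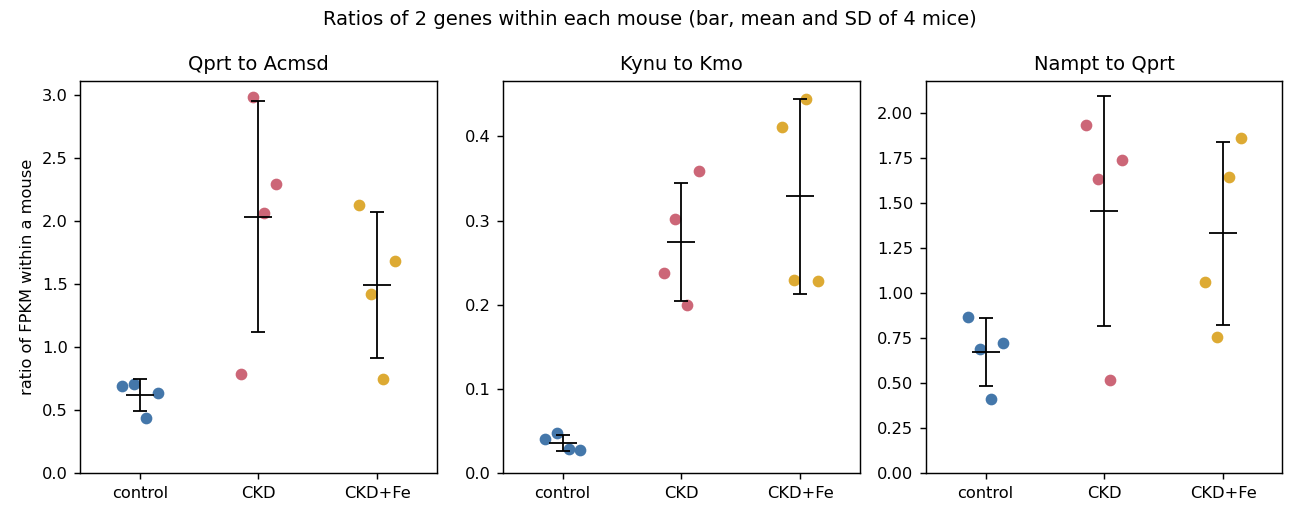
Ratio of the FPKM of 2 genes within each mouse (vertical axis, from 0), for Qprt to Acmsd, Kynu to Kmo and Nampt to Qprt. Points are mice, and bars are the mean and SD of 4 mice. Control mice sit below all CKD mice in the first 2 panels, and CKD mouse 110310 sits among the controls in the third.

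Markers of the proximal tubule were lower in CKD kidneys. Of 12 proximal tubule markers 11 were lower in CKD mice, with sums of 10066 to 13071 FPKM in control, 2081 to 3800 FPKM in CKD and 2274 to 5688 FPKM in CKD+Fe mice. Of 12 macrophage markers 11 were higher, with sums of 139 to 268, 1856 to 3864 and 1728 to 3846 FPKM, and no defining marker of either list was at 0 in a group. The mean log2(FPKM + 1) of the tubule markers differed by -1.85 between CKD and control mice (exact two-sided permutation p = 0.0286). Set against that mean in each mouse, Kmo differed between CKD and control by 0.11, Afmid by 0.16, Acmsd by -0.47 and Haao by -0.81 on the log2 scale, and all 4 overlapped. Relative to the tubule markers Qprt was at 1.06, Nmnat1 at 1.14, Nadsyn1 at 1.53, Nampt at 2.03 and Kynu at 2.72, and of these all but Qprt separated the groups. These values include the fall of the marker mean itself (-1.85), so a gene without any change also comes out higher here. Without that step the log2 fold changes of these genes were -0.79, -0.71, -0.32, 0.18 and 0.87, in the same order. The share of all genes that separate the groups on this relative scale is not given. The lowest p of these 18 exact permutation tests was 0.0286, the smallest such a test can give here, or 0.129 after adjustment. None passed, and with that floor this does not show that the genes did not differ. The part of tubule cell number in the falls was not tested.

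Over the 8 adenine-fed mice, Kmo followed the tubule markers closely (Pearson r = 0.973, exact permutation p = 0.000223, adjusted over 9 tests 0.00201, Spearman rho = 0.952, permutation p = 0.00114, adjusted 0.0103). Without the 2 mice farthest from the median, 022301 and 062910, r was 0.961. Afmid had r = 0.862 (exact permutation p = 0.00494, adjusted 0.0222, rho = 0.881, p = 0.00724, adjusted 0.0326) and Acmsd r = 0.848 (exact permutation p = 0.00997, adjusted 0.0299, rho = 0.810, p = 0.0218, adjusted 0.0392), and without those mice r was 0.893 and 0.753. Haao had r = 0.790 (exact permutation p = 0.0245, adjusted 0.0442, rho = 0.810), which dropped to 0.565 without them. Kynu, higher in CKD, still had r = 0.777 (exact permutation p = 0.0189, adjusted 0.0425, rho = 0.833) and 0.781 without them. Nmnat1 had r = 0.759 (adjusted exact permutation p = 0.0456) with rho = 0.714 (adjusted 0.0864), and Nadsyn1 r = 0.589 (adjusted exact permutation p = 0.165). Qprt and Nampt had r = 0.234 and 0.220, with unadjusted exact permutation p of 0.565 and 0.613. Without mice 022301 and 062910, r was 0.606 for Nmnat1, 0.850 for Nadsyn1, -0.33 for Qprt and 0.604 for Nampt, so the values of Qprt, Nampt and Nadsyn1 rest on those mice. These values pool CKD and CKD+Fe mice, since 4 mice a group are too few for a value within each. The permutations ignored group, and the marker mean was 0.50 higher in CKD+Fe than in CKD mice (exact two-sided permutation p = 0.229). A difference between the groups can therefore enter these correlations. The share of all genes with a like r is not given.

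**Figure D4:**
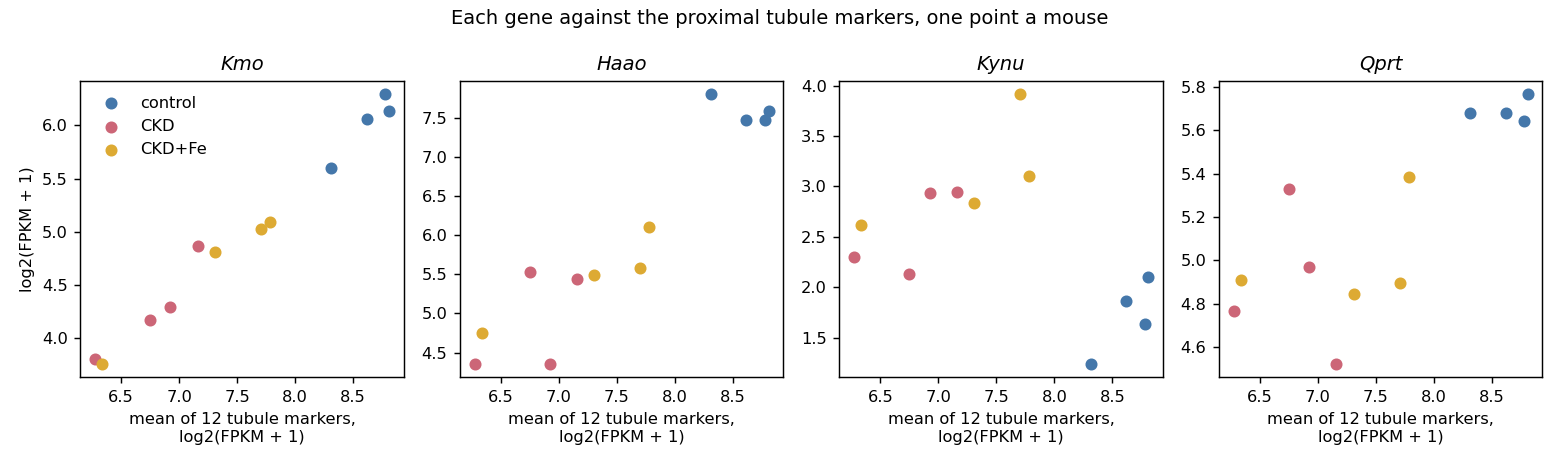
Log2(FPKM + 1) of Kmo, Haao, Kynu and Qprt (vertical axes) against the mean log2(FPKM + 1) of 12 proximal tubule markers (horizontal axis), with a point for each of the 12 mice. Kmo is higher where the marker mean is higher across all groups, while control mice have the highest marker means and the lowest Kynu.

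The other genes of the pathway were described from lists. Of the first step and tryptophan entry, 4 genes of 6 were tested and 2 were lower in CKD, Ido2 (4.91 to 0.561 FPKM by the means, log2 fold change -1.95, adjusted p = 1.77e-05) and the tubular amino acid transporter Slc6a19 (-1.04, adjusted p = 0.0309). Tdo2 was under the filter and Slc7a5 was not analysed here. All 4 enzymes of the side branches, which turn kynurenine to kynurenic acid or divert later products, were lower, from Aadat (217 ± 31.3 to 32.5 ± 14.2 FPKM, SD, n = 4, log2 fold change -2.80, adjusted p = 4.13e-06) to Kyat1 (-0.77, adjusted p = 0.000518). The medians were -0.74 for the first list and -1.83 for the second.

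Of 7 tested genes of salvage and other NAD synthesis 3 were lower, with the largest value for the organic anion transporter Slc22a13 (-1.85, adjusted p = 0.000123), and 1 was higher, Nmnat3 (0.33, adjusted p = 0.0476), which was at -0.24 and not called after median-of-ratios rescaling. The median was -0.44, and 6 were lower and 0 higher on that scale. Nnmt, which methylates nicotinamide and so removes it from salvage, was higher, at 1.21 ± 0.466 FPKM (SD, n = 4) in control and 7.26 ± 3.04 FPKM in CKD mice (log2 fold change 1.86, adjusted p = 1.61e-05). Aox1 and Aox3 of the same list were under the filter.

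Of 14 tested NAD consumers 9 were higher and 1 lower, with a median of 0.92, beside 54.6% of all genes higher. Parp14, a mono-ADP-ribosyltransferase, went from 2.26 ± 0.397 to 10.9 ± 2.102 FPKM (SD, n = 4, log2 fold change 1.85, adjusted p = 4.53e-07). Sirt3, the mitochondrial deacetylase, was the 1 that fell, from 69.9 ± 6.33 to 27.4 ± 5.78 FPKM (SD, n = 4, -1.34, adjusted p = 1.81e-05). After median-of-ratios rescaling 7 consumers were higher and 5 lower, so the balance of this list depends on the scale. Of 4 tested genes of the aryl hydrocarbon receptor axis, whose ligands include kynurenine, 3 were higher, again beside 54.6% of all genes. They ran from Cyp1b1 (2.05, adjusted p = 3.45e-06) to Arnt (1.14, adjusted p = 0.000121), and Tiparp, at 0.11, was not called. Cyp1a1 was under the filter and went the other way, from 0.387 ± 0.0825 to 0.103 ± 0.0418 FPKM (SD, n = 4). The activity of the receptor was not tested. With iron, 0 genes of any of these lists were called by limma in the 12 mice.

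**Figure D5:**
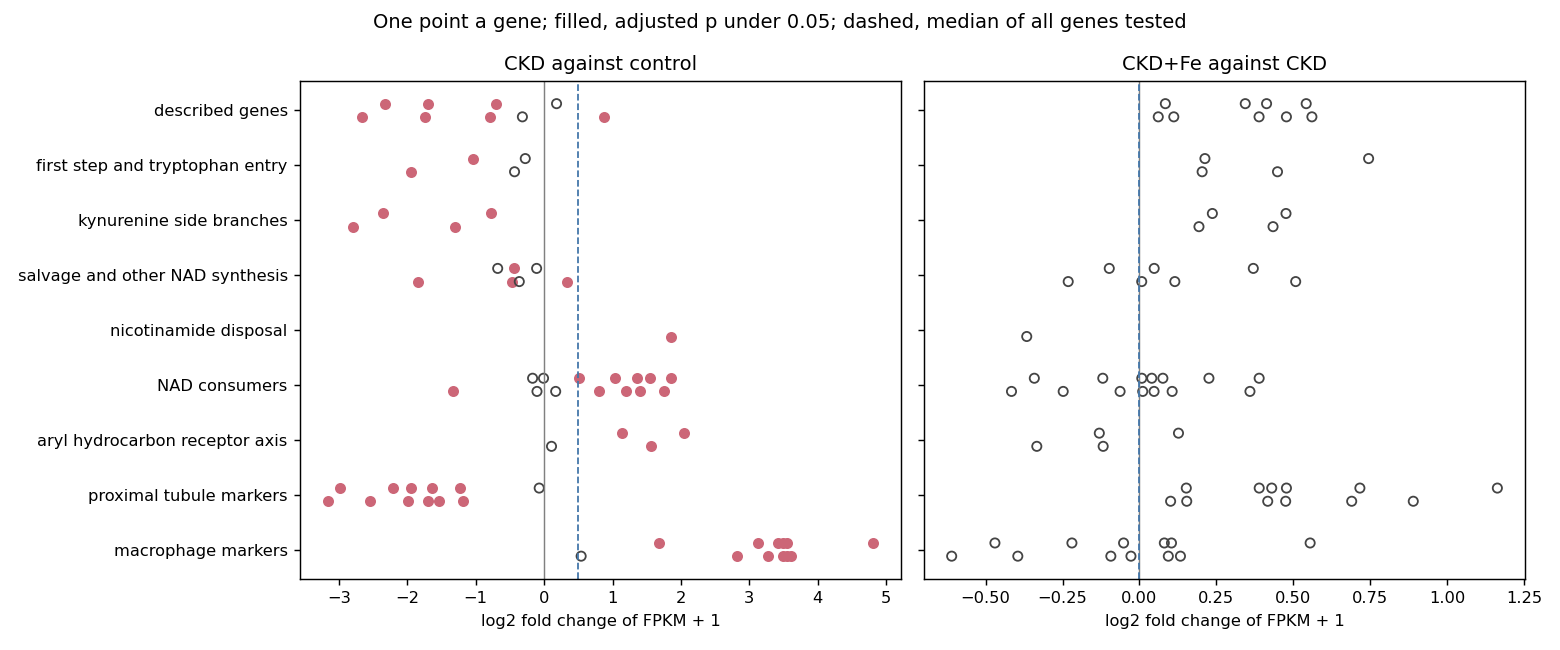
Log2 fold change of FPKM + 1 (horizontal axis) of each tested gene, in rows by list, for CKD against control and CKD+Fe against CKD. Filled points have an adjusted p under 0.05, and the dashed line is the median of all genes tested. All 4 side-branch enzymes and 11 of 12 proximal tubule markers are filled and lie below 0 in CKD, and no point is filled for iron.

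The remaining marker lists gave the tissue around the pathway. In CKD mice 6 of 7 tested dendritic cell and lymphocyte markers were higher, 1 of 5 endothelial markers was lower (Kdr), 2 of 6 distal nephron markers were lower (Aqp3 and Aqp2), 2 of 5 podocyte markers were higher and 1 of 6 papilla and urothelium markers was higher (Krt20). Of all genes tested 13.3% were lower and 54.6% higher in CKD mice. The podocyte list and the papilla and urothelium list thus had a smaller share of higher calls than all genes. Of 5 liver markers 2 were lower and 1, Fgb, higher. The dendritic cell and lymphocyte count was 4 after median-of-ratios rescaling and 1 after quantile normalization. Their part in the values of the pathway genes was not tested.

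For each gene the 2 genes with the most alike profile over the 12 mice were found, by the root mean square difference of centred log2(FPKM + 1). Haao was nearest to the cation transporter Slc22a2 (difference 0.12, where Haao itself ranged over 3.44) and to Mogat1. Afmid was nearest to Glyat and Fbxo40, Kmo to 4931406C07Rik and Pm20d1, and Acmsd to Adgrg4 and Akr1c21. Qprt was nearest to Sigirr and Spr, and Nmnat1 to Aamdc and to Vdac1, the channel of the outer mitochondrial membrane, at differences of 0.08 and 0.09. Kynu was nearest to Akr1c19 and to the distal tubule transporter Slc12a3, at differences of 0.27 and 0.30. Nadsyn1 and Nampt ranged over 0.99 and 1.34 and had Zfp655 and Glb1l, and Ube4a and Evi5, as nearest.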

How the data were processed

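RNA of whole kidney from 12 mice was sequenced by the authors from stranded mRNA libraries with single-end reads on a HiSeq4000, and the submitters' processing notes name bcl2fastq 2.19, STAR 2.5.2 and Cufflinks 2.1.1 and the build GRCm38. The authors deposited FPKM of protein-coding genes by mouse, and 30 values marked as failed estimates (17 genes) were treated as missing. FPKM are not counts, and read totals were not given in the sources used here. Steps between low values put relative depth between 0.688 and 1.0, so no counting interval is given, and the precision is that of 4 mice a group. The labels name no batch, and p values measure the spread between mice.

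Log2(FPKM + 1) of the 13148 genes that reached 1 FPKM in 4 or more mice was fitted with limma 3.58.1 in R 4.3.3 (variance trend, all 12 mice), with two-sided p values adjusted by Benjamini-Hochberg at 0.05. Single values were tested by exact permutation over the 70 arrangements of mice in Python 3.11.15. Correlations were tested over all permutations of the 8 adenine-fed mice, with ranks from scipy 1.17.1. One promoter is not reported here. The genes and lists were chosen with earlier results of these data known. The text names all 10 genes, the list genes with the lowest and highest called change, every gene of a list with 3 or fewer tested, and the 2 nearest profiles per gene. Other genes named (Gm20708, Tdo2, Tiparp, Cyp1a1, Kdr, Aqp2, Aqp3, Krt20 and Fgb) and the ratios were chosen after their values were seen. Slc7a5 is named as a list gene without a value. The alternatives were a pseudocount of 0.1, no filter, a mean of at least 5 FPKM, median-of-ratios and quantile scaling, fits of 2 groups, array weights, no variance trend, a threshold of 0.5 and each mouse left out. Leaving out 3 mice together was added after seeing the data.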

Additional observations from a re-analysis of the deposited data

Results flagged for a closer look

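Among 30 sets of 4 mice (10 genes in 3 groups), 2 held a mouse whose gap to the next, as a share of the range of its group, exceeded Dixon's 95% critical value, which chance passes in about 1 in 20 sets. Acmsd was at 114 FPKM in control mouse 042301, against a mean of 74.9 FPKM in the other 3 control mice. Without that mouse the log2 fold change of Acmsd in CKD was -2.17 (limma, adjusted p = 0.000234). Qprt was at 40.8 FPKM in CKD+Fe mouse 062910, against a mean of 28.5 FPKM in the other 3, and without it the log2 fold change of Qprt in CKD+Fe against control was -0.81 (limma, adjusted p = 0.00118).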

How the results depend on the processing

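The count of 6 genes lower in CKD and in CKD+Fe against control and of 0 called with iron stayed within 1.5 times under every alternative run. The count of genes higher in CKD went from 1 to 0 with median-of-ratios rescaling and to 0 with quantile normalization, and in CKD+Fe against control from 1 to 0 with quantile normalization and to 2 at an adjusted p under 0.5. Directions turned for genes that were not called. Nampt in CKD was at -0.423 with median-of-ratios rescaling and ranged from -0.0363 to 0.467 with each mouse left out, and in CKD+Fe against control it was at -0.353 with that rescaling. With iron, Nampt was at -0.00867 with array weights and -0.114 without mice 042301, 110310 and 042702, and with each mouse left out it ranged from -0.225 to 0.223, Qprt from -0.0141 to 0.255 and Nmnat1 from -0.000107 to 0.171. Nadsyn1 in CKD+Fe against control was at -0.529 with median-of-ratios rescaling and -0.569 with quantile normalization, and ranged from -0.0925 to 0.193. The rescalings remove the shift of all genes by construction, and the cause of the other changes was not tested. Over all genes, 1748 lower and 7181 higher in CKD became 4075 and 3571 with median-of-ratios rescaling, and 0 lower and 1 higher with iron became 69 and 91 with array weights and 33 and 51 without the 3 mice. No paired analysis was possible because the groups share no replicate numbers. The number of mice limits the precision.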
